A study of Homo sapiens with 6 samples.

Results

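The MCM proteins were examined at the level of their mRNAs and of the ribosomes on them. MCM2, MCM3, MCM4, MCM5, MCM6 and MCM7 form the ring-shaped helicase that is loaded onto replication origins before S phase and that unwinds DNA ahead of the replication forks, with each subunit present in a single copy per ring. MCM8 belongs to the same ATPase family and acts with MCM9 in homologous recombination, whereas MCM10 is not an ATPase of this family and helps to activate the loaded helicase. All 8 genes were chosen by their symbols, and each has a row in the translational efficiency table, which holds 8121 genes, and in the ribosome occupancy table, which holds 9570 transcripts, one for each gene. A total of 6912 genes are in both tables.

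The cells were HEK293, a line derived from human embryonic kidney, and every sample was treated with a control siRNA and with cycloheximide at 100 μg/ml, which arrests elongating ribosomes. There were 3 libraries of ribosome-protected fragments (RPFs), the stretches of mRNA that a ribosome shields from nuclease, and 3 libraries of total RNA from the same lysates, numbered 1 to 3. All 6 samples thus share a single condition, so the comparisons are between mRNAs and between regions of an mRNA. The methods describe 3 repeats of the preparation without stating whether these were separate cultures, and the p-values measure only the spread between these repeats, which may be technical. Of 8 markers listed for HEK293 cells, 6 were in the translational efficiency table and 7 in the occupancy table, and none of 8 markers of blood, liver, endothelial or muscle cells was in either. Relative to the median transcript, the mRNA abundance of these markers was 22.2 ± 0.185 (SD, n = 3) for VIM, vimentin, 19.1 ± 0.941 for NEFL, a neurofilament protein, and 2.79 ± 0.110 for KRT18, but only 0.808 ± 0.0543 for CDH2, 0.445 ± 0.0506 for KRT8 and 0.0863 ± 0.00569 for LHX1.

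Translational efficiency (TE) is given for each replicate as RPFs over total RNA, on a linear scale. Occupancy is the number of in-frame RPFs at a codon, scaled for library size and divided by the TPM of the mRNA, the measure of transcript abundance of the total RNA libraries, with the replicates combined. Each value of occupancy on the 8 mRNAs could be written exactly as whole reads of 3 libraries, which gave back the reads of each library at each codon. These libraries are called A, B and C from the deepest to the shallowest, because the table does not tie them to replicate numbers. On the coding sequences (CDSs) of the 8 mRNAs they held 98330, 79171 and 55938 in-frame reads, 233439 in all.

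The AUGs that the data bear on are shown first, because the deposited CDSs of MCM3 and MCM7 do not begin where the reads begin. On the assumption given with its 5′UTR below, the highest codons of the MCM8 5′UTR are also at the positions of its upstream AUGs. The sequences are from GENCODE 44 on GRCh37, are written 5′ to 3′ in the sense of the mRNA, and have the AUG in capitals.

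MCM3 first AUG: taatgcttatATGctccc

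MCM3 second AUG: ggcagcgggcATGgcggg

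MCM7 long form AUG: ctcggcagcgATGgcact

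MCM7 deposited AUG: caaacccaagATGgtggt

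MCM8 AUG: cacaggagagATGaatgg

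MCM8 upstream AUG 1: gttgagacagATGgggtt

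MCM8 upstream AUG 2: gccttaggagATGtaaat

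MCM5 AUG: aggcgcagtcATGtcggg

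MCM6 AUG: ctaagcaaatATGgacct

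Both AUGs of MCM3 lie in exon 1 on the minus strand, at chr6:52149605-52149607 and at chr6:52149470-52149472. The AUG of the long form of MCM7 lies in exon 1 at chr7:99698915-99698917, and the deposited one in exon 5 of that form at chr7:99696697-99696699, on the minus strand. The main AUG of MCM8 is in exon 2 at chr20:5932662-5932664, and its upstream AUGs are in exon 1, at chr20:5931448-5931450 and chr20:5931692-5931694 on the plus strand. The AUG of MCM5 lies in exon 2 at chr22:35796432-35796434 and that of MCM6 in exon 1 at chr2:136633933-136633935. The deposited CDSs have 905 codons for MCM2, 854 for MCM3, 864 for MCM4, 735 for MCM5, 822 for MCM6, 544 for MCM7, 841 for MCM8 and 876 for MCM10, stop codon included.

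To compare how well the mRNAs of the family were translated, TE was examined first. The subunits of the ring spanned a wide range, although they are used in equal numbers. MCM6 had the highest TE of the family, with 2.93, 2.82 and 2.98 in replicates 1 to 3 (2.91 ± 0.0826, SD, n = 3), which placed it above 94.96% of all genes. MCM4 followed with 0.935, 0.903 and 0.923 (0.920 ± 0.0165). The values of both were above all others of the family in every replicate.

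MCM7 had a TE of 0.566, 0.535 and 0.518 and MCM5 one of 0.459, 0.443 and 0.418, and both were above the median of all values, 0.383, in each replicate. MCM3, with 0.359, 0.353 and 0.338, and MCM2, with 0.285, 0.282 and 0.267, were below it in each replicate. Outside the ring, MCM10 had 0.327, 0.279 and 0.263, the widest spread of the family (CV 11.5%), and MCM8 had 0.120, 0.131 and 0.122, which placed it above 11.5% of all genes. The replicates of MCM10 overlapped with those of MCM2 and of no other gene of the family.

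**Figure D1:**
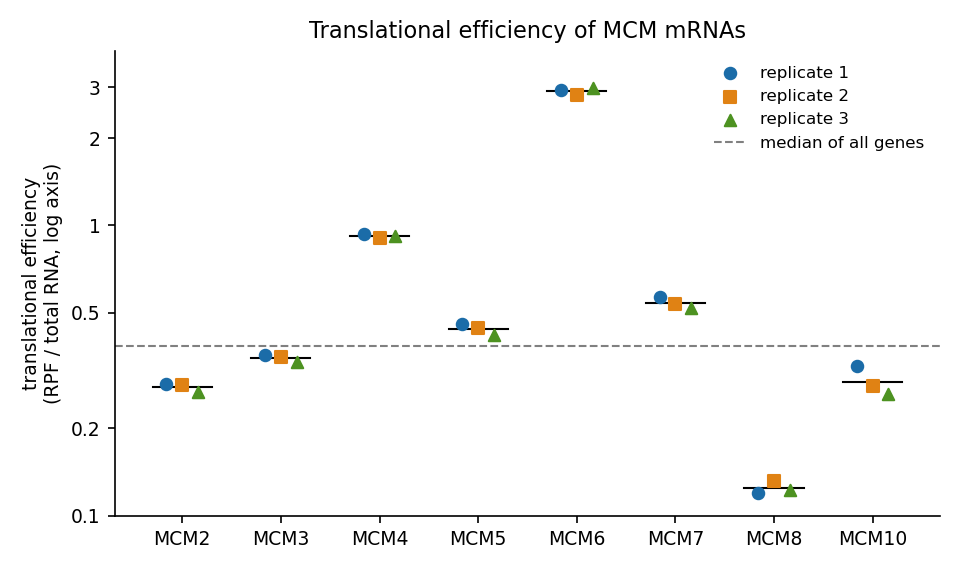
TE of the 8 MCM mRNAs on a log axis, with a point for each of the 3 replicates, a short line at their mean and a dashed line at the median of all genes (0.383). MCM6 lies between 2.82 and 2.98 and MCM8 between 0.120 and 0.131.

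Against the median of all values, TE was tested with limma on log2(TE + 0.01), and fold changes are on that scale. In this test 89.3% of all genes were called at an adjusted p under 0.05, 44.7% above and 44.6% below the median, so the 7 of 8 MCM genes called, 4 above and 3 below, are a share like that of all genes. MCM6 was 7.42-fold above the median (log2 2.89, SE 0.05, limma adjusted p = 1.4e-06), MCM4 2.37-fold (log2 1.24, SE 0.05, adjusted p = 9.2e-06) and MCM7 1.40-fold (log2 0.48, SE 0.05, adjusted p = 0.000483). MCM5 was 1.14-fold above it (log2 0.19, SE 0.05, adjusted p = 0.0187), a call that was lost without replicate 1 (adjusted p = 0.0820) and without replicate 2 (0.0802).

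MCM8 was lowest, at 0.342 times the median (log2 -1.55, SE 0.05, limma adjusted p = 6.4e-06), followed by MCM2 at 0.732 times (log2 -0.45, SE 0.05, adjusted p = 0.000539) and MCM10 at 0.760 times (log2 -0.40, SE 0.08, adjusted p = 0.00463). MCM3 was at 0.915 times the median and was not called (log2 -0.13, SE 0.05, adjusted p = 0.0584).

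The MCM genes were then compared with each other within each replicate, over 28 pairs, with the adjusted p taken over all genes and the larger of the fits centred on either gene. In fits of every gene against each MCM gene 90.6% of the comparisons were called, and 26 of the 28 pairs were. MCM6 exceeded MCM4, its nearest neighbour, 3.14-fold (limma adjusted p = 2.2e-06), MCM2 10.1-fold and MCM8 21.7-fold. Further down the order the steps were smaller, and the TE of MCM4 was 1.69-fold that of MCM7 (adjusted p = 4.9e-05), MCM7 1.22-fold that of MCM5 (0.00562) and MCM5 1.25-fold that of MCM3 (0.00336). MCM3 and MCM10 differed 1.205-fold and were not called (adjusted p = 0.0602, and 0.0129 in the fit centred on the other gene), nor were MCM10 and MCM2, which differed 1.04-fold (0.722). MCM2 was 2.14-fold above MCM8 (adjusted p = 1.2e-05).

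The 5 replication genes with a TE nearest to the median of MCM2 to MCM7, measured as the Euclidean distance over the 3 replicates on the log2 scale among 64 candidates, were ORC3 (distance 0.102), a subunit of the origin recognition complex, TK1 (0.152), thymidine kinase, RFC1 (0.178), the large subunit of the clamp loader, PRIM1 (0.190), the catalytic subunit of primase, and RPA2 (0.1997), a subunit of the single-strand binding protein RPA. This likeness is over 3 replicates of a single condition.

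Total RNA is the denominator of TE, and the amount of each mRNA was examined next. The number of RPFs that a unit of occupancy stands for is proportional to TPM, and this was expressed relative to the median transcript of the table in each library. MCM7 was the most abundant mRNA of the family, at 17.4, 17.6 and 17.6 times the median transcript in libraries A, B and C. MCM2 followed at 12.7, 12.3 and 13.3, MCM3 at 10.0, 10.1 and 10.3, MCM4 at 9.24, 9.39 and 9.72 and MCM5 at 7.55, 6.83 and 7.60. MCM6 was the least abundant mRNA of the ring, at 3.47, 3.84 and 4.24. The libraries of these 6 mRNAs did not overlap, and the subunit with the highest TE had the lowest mRNA level of the ring.

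MCM10 was at 2.14 ± 0.0429 and MCM8 at 1.79 ± 0.0774 times the median transcript (SD, n = 3), both below every subunit of the ring. For comparison MCM9, the partner of MCM8, was at 1.28 ± 0.0390, and MCMBP, a protein that binds free MCM subunits, at 4.70 ± 0.193. All transcripts of the ring were above 85.8% of transcripts in abundance.

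Footprints per codon give a measure of the ribosomes that work on all copies of an mRNA. Counted from the second AUG of MCM3 and, on the assumption given with its start below, from the AUG of the long form of MCM7, MCM7 had 32.1, 26.4 and 18.6 reads per codon in libraries A, B and C and MCM4 had 32.0, 25.5 and 17.9. MCM3 had 20.1, 16.4 and 10.98, MCM6 16.6, 12.7 and 9.60 and MCM2 15.5, 12.7 and 9.17. MCM5 had 8.49, 6.69 and 5.04, the fewest of the ring in each library. Outside the ring there were 4.89 reads per codon on MCM8 and 8.12 on MCM10 with the libraries summed, where MCM5 had 20.2.

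As shares of the sum over the 6 subunits, which removes the depth of a library, MCM7 took 28.7% ± 0.638 of the mRNA and 26.0% ± 0.277 of the footprints per codon (SD, n = 3). MCM6 took 6.30% ± 0.507 of the mRNA and 13.1% ± 0.407 of the footprints, and MCM4 15.5% ± 0.159 and 25.4% ± 0.248. In the opposite direction, MCM2 took 20.9% ± 0.349 of the mRNA and 12.6% ± 0.208 of the footprints, and MCM5 12.01% ± 0.573 and 6.84% ± 0.206. For MCM3 the shares were 16.6% ± 0.177 and 15.96% ± 0.506. The libraries did not overlap between mRNA and footprints for any of the 6, but a share over all genes was not set beside this count. In the separate limma test of TE against the median, 89.3% of all genes were called. As shares of the same sum, the 6 are also not independent of each other. With 3 libraries against 3 an exact permutation test cannot reach a p under 0.05, and none was run.

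**Figure D2:**
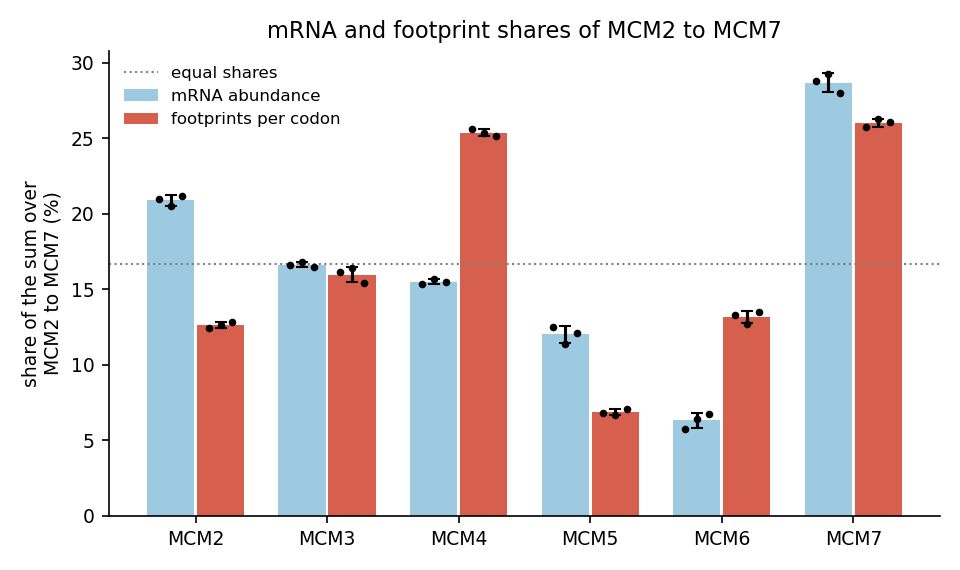
Share (%) of each subunit in the sum over MCM2 to MCM7 of mRNA abundance and of in-frame footprints per codon; bars are means over libraries A, B and C, error bars the SD (n = 3), points the libraries and the dotted line equal shares. The footprint share exceeds the mRNA share for MCM4 (25.4% against 15.5%) and MCM6 (13.1% against 6.30%) and is below it for MCM2 and MCM5.

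The highest and the lowest subunit of the ring differed 4.57-fold ± 0.429 in mRNA, 10.5-fold ± 0.594 in TE and 3.81-fold ± 0.127 in footprints per codon (SD over libraries or replicates, n = 3). The coefficient of variation over the 6 subunits was 45.9% for mRNA and 45.6% for footprints. Beside these values, the 6 subunits of the origin recognition complex (ORC1 to ORC6) differed 2.56-fold in mRNA, 4.30-fold ± 0.155 in TE and 2.80-fold ± 0.171 in footprints per codon. The 4 subunits of GINS, which binds the MCM ring in the active helicase, differed 4.57-fold in mRNA, 5.66-fold ± 0.314 in TE and 3.13-fold ± 0.171 in footprints, and RFC1 to RFC4 of the clamp loader, without RFC5, which was not in the occupancy table, 1.94-fold, 7.29-fold ± 0.857 and 3.10-fold ± 0.0730. The coefficient of variation was 28.5% for mRNA and 31.6% for footprints over ORC1 to ORC6. Over GINS1 to GINS4 it was 82.9% and 53.8%, both above the ring, and over RFC1 to RFC4 30.7% and 41.2%. The fold between highest and lowest also depends on the number of subunits, 6 or 4 here. The complexes were not tested against each other.

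Occupancy per codon and mRNA offers a measure that is close to TE but is confined to in-frame reads of the CDS. MCM6 had the highest mean occupancy over its CDS, with 0.125, 0.107 and 0.107 in libraries A, B and C, and MCM4 followed with 0.0908, 0.0877 and 0.0873. Counted over the deposited CDSs, MCM3 had 0.04998, 0.0499 and 0.0477, MCM7 0.0439, 0.0444 and 0.0444 and MCM10 0.0421, 0.0419 and 0.0433. From the second AUG of MCM3 and the AUG of the long form of MCM7 the means were 0.0519 and 0.0491. MCM2, with 0.0322, 0.0334 and 0.0328, was above MCM5, with 0.0295, 0.0316 and 0.0314, and MCM8, with 0.0286, 0.0316 and 0.0311. Among neighbours in this order the libraries overlapped for MCM5 and MCM8 only.

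The median transcript had an occupancy of 0.0441 (n = 9173 transcripts with more than 100 codons and at least 25 reads), and MCM6 was above 87.6%, MCM4 above 80.5% and MCM8 above 33.0% of them. The order of the family differed between the measures, as MCM5 was above MCM3, MCM10 and MCM2 in TE and below them in occupancy. The ratio of TE to occupancy was 25.7 for MCM6, above that of 94.4% of the genes in both tables, 14.3 for MCM5 and 4.10 for MCM8, against a median of 7.61. The formula behind TE is not given in the sources used, and the part of the formula in this difference was not tested.

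Along each CDS the reads were far from even, and the pattern was shared by the libraries. The reads per codon of libraries A and B correlated with a Pearson coefficient of 0.963 on MCM2 (n = 905 codons), 0.957 on MCM3, 0.964 on MCM4, 0.942 on MCM5, 0.956 on MCM6 and 0.963 on MCM7. For the mRNAs with fewer reads it was 0.895 on MCM8 and 0.902 on MCM10. Libraries A and C gave coefficients from 0.860 on MCM10 to 0.976 on MCM4, higher than those of A and B on MCM2, MCM4, MCM6 and MCM7 and lower on the others. Libraries B and C gave a lower coefficient than A and B on each mRNA, from 0.826 on MCM10, 0.886 on MCM8, 0.894 on MCM5 and 0.924 on MCM3 to 0.950 on MCM4. These coefficients are descriptions across the codons of an mRNA, which the same ligation and nuclease treatment touch in every library. No in-frame read was found at 36.9% of the codons of MCM8 and at 12.4% of those of MCM4.

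Codons with more than 5 times the mean occupancy of their own CDS numbered 37 on MCM2, 36 on MCM3, 27 on MCM4, 41 on MCM5, 35 on MCM6, 34 on MCM7, 32 on MCM8 and 37 on MCM10. They held between 30.2% of the occupancy on MCM4 and 48.2% on MCM5. Of these codons 26 on MCM2, 28 on MCM5 and 19 on MCM8 passed that level in each of the 3 libraries. The codon with the highest occupancy of each mRNA is given next, in capitals, with 12 nt on either side (MCM7 counted from the AUG of the long form, where number and sequence hold if its deposited 5′UTR has no gap, which was not tested), and no sequence is shown for MCM4.

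MCM2 codon 375: cagaactaccagCGTatccgaatccag

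MCM3 codon 507: aggtatgaccagTATaagactccaatg

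MCM5 codon 140: agcattcgtagcCTGaagtcggacatg

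MCM6 codon 329: attaagaaccaaATGactgtgaaagaa

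MCM7 codon 78: gcgaagctctttGCTgatgccgtacaa

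MCM8 codon 114: tatgacaaggatGAAatagaaagaaag

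MCM10 codon 698: gtgaaggaacgtGTAgaaaaaaacacc

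Codon 375 of MCM2, in exon 7 at chr3:127327246-127327248, had 334, 254 and 278 reads, or 21.5, 20.0 and 30.3 times the CDS mean in libraries A, B and C. Codon 329 of MCM6, in exon 7 at chr2:136622674-136622676, stood at 18.6, 21.7 and 20.7 times the mean, with 785 reads in all. Codon 114 of MCM8, in exon 5 at chr20:5935751-5935753, had the highest relative value of the family, 22.5, 29.1 and 33.5 times the mean, but on 134 reads. Each of these codons stood out in all 3 libraries.

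Codon 86 of MCM4 was at 20.1, 20.5 and 20.5 times its mean (1533 reads), the most even of the highest codons. Codon 507 of MCM3 (chr6:52138703-52138705, exon 10) was at 14.8, 19.003 and 12.4 times its mean and codon 140 of MCM5 (chr22:35799530-35799532, exon 4) at 20.6, 15.5 and 30.7 times. Codon 78 of MCM7 (chr7:99697254-99697256 in exon 3, on the same condition) was at 14.0, 12.3 and 20.3 times and codon 698 of MCM10 (chr10:13239737-13239739, exon 15) at 21.8, 21.2 and 16.1 times. The highest codon was thus at 12.3 times the mean or more in every library of every member. It was chosen on these same libraries combined, so high values in each were partly set by that choice.

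The ATPase of the MCM family is built from conserved motifs, the Walker A motif, which binds the phosphates of ATP, the Walker B motif, and the arginine finger, which reaches into the site of the neighbouring subunit. Each was found once by its residues in the translated CDS of the 7 members other than MCM10, which had none of them. Over the Walker A motif and 10 codons to either side, mean occupancy was below the CDS mean in 6 of 7, from 0.251 times the mean on MCM8 (35 reads) to 0.822 on MCM5, and was 1.06 ± 0.0261 on MCM6 (SD over libraries, n = 3). On MCM3 it was 0.390 ± 0.0637, on MCM4 0.478 ± 0.0481, on MCM7 0.629 ± 0.0111 and on MCM2 0.661 ± 0.0758. Since a few codons hold much of the occupancy, the median window of that length was itself below 1. It ran from 0.786 on MCM2 to 0.959 on MCM6, and 6 of the 7 Walker A windows were below the median window of their own CDS. Among the windows of its CDS the Walker A window was at percentile 3.56 on MCM8, 12.5 on MCM3 and 24.3 on MCM4. The others were nearer the middle, at 32.5 on MCM7, 41.7 on MCM2, 45.5 on MCM5 and 60.6 on MCM6.

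Around the Walker B motif the mean was above 1 in 5 of 7, with 3.50 ± 0.289 on MCM2, 2.93 ± 0.241 on MCM4, 1.88 ± 0.222 on MCM5, 1.41 ± 0.193 on MCM6 and 1.25 ± 0.129 on MCM3. It was 0.742 on MCM8 and 0.678 on MCM7. The highest codon of the window was codon 593 on MCM2, at 23.2 times the CDS mean, and codon 588 on MCM4, at 19.5 times. Both lie outside the motif itself, whose own codons were at 3.43 times the mean on MCM2 and 2.38 times on MCM4. At the arginine finger the values lay between 0.563 on MCM6 and 1.67 on MCM3, 4 below and 3 above the mean. Against the median window of their own CDS, 2 of 7 windows were below it at the arginine finger and 2 of 7 at the Walker B motif. The motifs were not tested against other windows.

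The first 75 codons were compared with the last 75 next. MCM4 and MCM2 had few in-frame reads at the beginning of the deposited CDS. Whether another start or isoform is used on these mRNAs was not tested. On MCM4 the first 75 codons had 0.128, 0.144 and 0.113 times the mean occupancy of the CDS in libraries A, B and C, on 307, 275 and 152 reads, and 0.102 ± 0.0156 times the occupancy of the last 75. Only 3.40% of transcripts had a lower ratio of the first 75 codons to the CDS. The longest stretch of the mRNA in which every codon was under 0.1 times the CDS mean, codons 5 to 23, also lay there, with 10 reads where the mean would give 1432.

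On MCM2 the first 75 codons had 0.319, 0.300 and 0.262 times the mean of the CDS, lower than all but 9.02% of transcripts, and 0.316 ± 0.0271 times the last 75. MCM6 had 0.925 ± 0.0297 times its mean in the first 75 codons and 0.672 ± 0.00906 times the occupancy of the last 75. MCM10 had 1.22 ± 0.0840 times its mean and 0.690 ± 0.0297 times the last 75. MCM5 was near even, with 1.15 ± 0.0832 for first over last, and MCM8 leaned to the beginning, with 2.04 ± 0.139. The median of all transcripts was 0.984 for first over last and 0.906 for first over CDS. The mRNAs of the ring thus ranged from 0.102 to 1.15 as deposited, with MCM3 at 0.532 ± 0.0769 and MCM7 at 0.932 ± 0.0460, but for these the start needed a closer look.

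**Figure D3:**
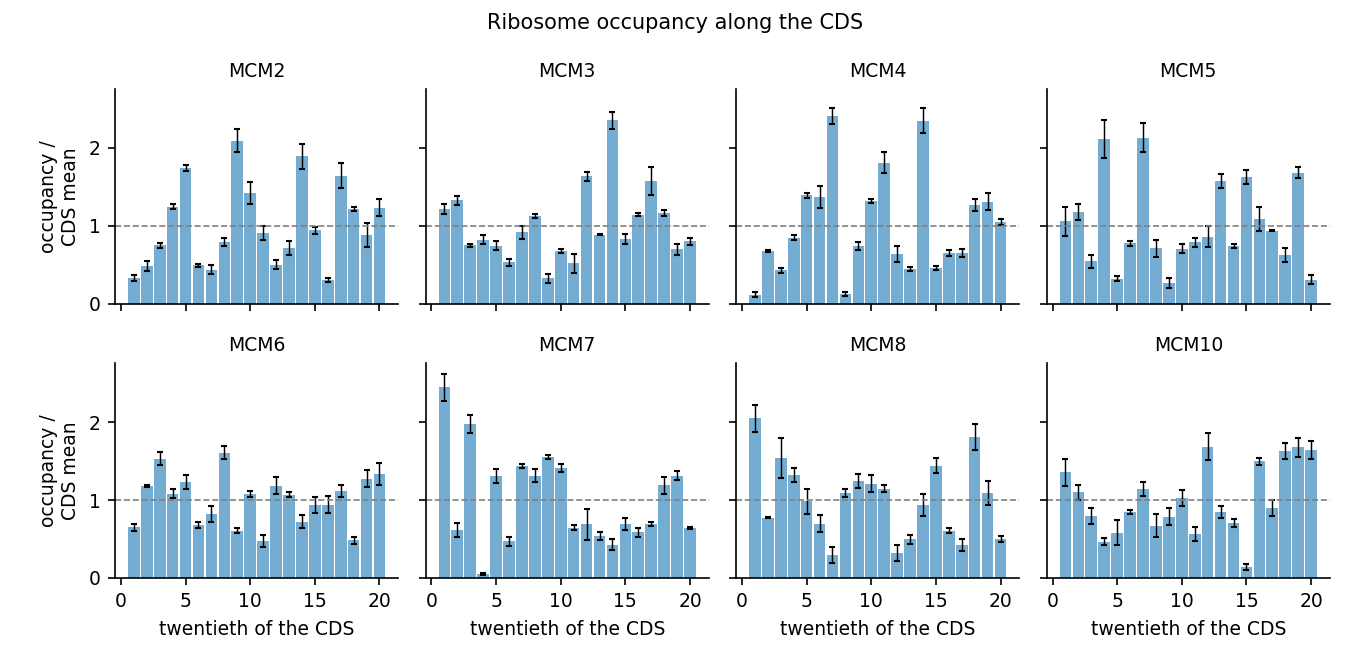
Mean occupancy in 20 equal stretches of the CDS (x axis, from start to stop) relative to the mean of the whole CDS (y axis, dashed line at 1) for the 8 MCM mRNAs, with MCM3 counted from its second AUG and MCM7 from the AUG of its long form, if its deposited 5′UTR has no gap; error bars are the SD over libraries A, B and C (n = 3). The first stretches of MCM2 and MCM4 are low, and a stretch near codon 111 to 139 of MCM7 is nearly empty.

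On MCM3 the reads began within the deposited CDS. Its first 45 codons held 7, 3 and 1 reads in libraries A, B and C, all at codons 32 and 33, and its 5′UTR of 20 codons held none. From codon 46, which is an in-frame AUG and the start of the GENCODE form of 809 codons (808 residues), the next 45 codons held 1076, 795 and 574 reads, on 40 of 45 codons. This is 0.0815 reads per codon and library before the second AUG against 18.1 ± 5.59 after it. Counted from the second AUG, the first 75 codons had 1.35 ± 0.0618 times the mean of the CDS and 1.88 ± 0.145 times the occupancy of the last 75, where counting from the deposited start had given 0.404 and 0.532. The direction of the comparison was thus set by the start chosen.

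On MCM7 the reads began upstream of the deposited CDS. Of the reads on its mRNA a share of 32.8% ± 1.09 (SD, n = 3) lay in the deposited 5′UTR of 376 codons, a share above that of 98.9% of transcripts. The deposited AUG is codon 177 of the GENCODE form of 720 codons (719 residues), and counting back in frame by the 176 codons that separate these AUGs leads to codon 201 of the deposited 5′UTR, if that sequence runs through without a gap. The sequence of the deposited 5′UTR was not analysed here, and a gap was not tested. Codon 201 held 306, 180 and 201 reads, 8.91 times the mean of the long CDS, and the deposited AUG held 2, 1 and 0.

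From codon 201 to the end of the 5′UTR there were 7310, 5858 and 4436 reads, or 100.02 per codon with the libraries summed, against 69.7 per codon in the deposited CDS. Of the 825 reads before it, 821 were in the 11 codons next to it, and the 189 codons further upstream held 4. The footprints next to it were at codons 190 to 200, on 9 of these 11, so that the reads began before codon 201. They stood at 74.6 per codon with the libraries summed, a density like that of the deposited CDS. Whether the AUG of the long form lies at codon 201 or further upstream in the deposited 5′UTR was not tested. Counted from codon 201, the first 75 codons had 1.55 ± 0.0360 times the mean of the CDS and 1.59 ± 0.0287 times the last 75, and the share of reads in the 5′UTR was 1.44% ± 0.131.

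**Figure D4:**
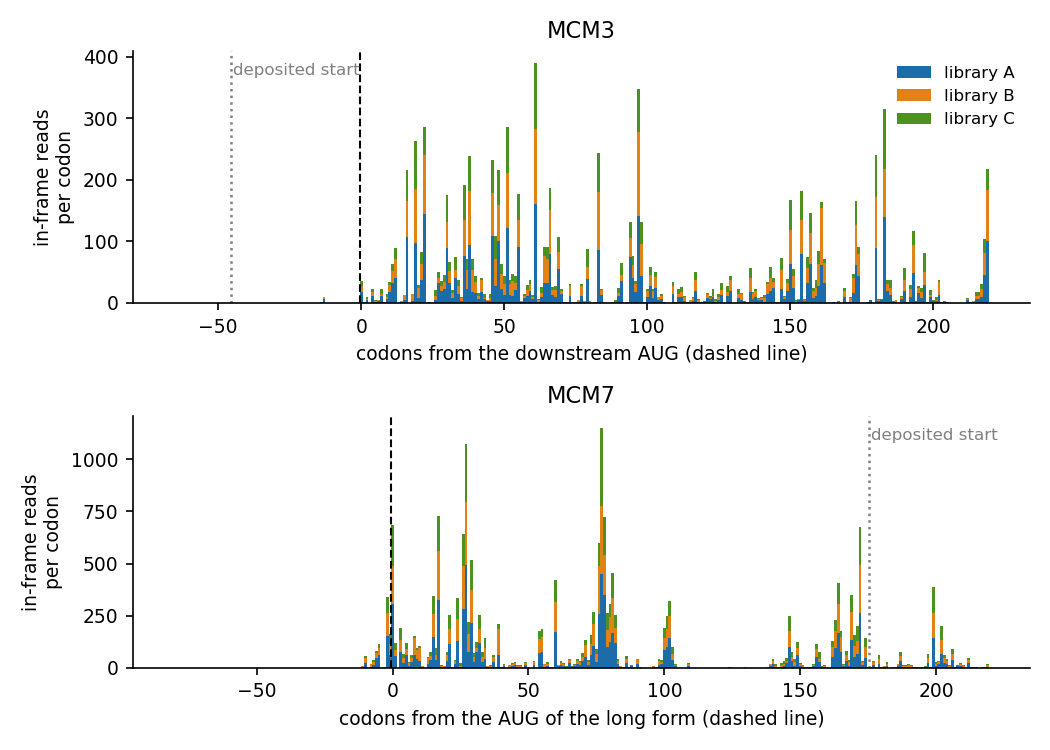
In-frame reads per codon (y axis, libraries A, B and C stacked) by distance in codons from the second AUG of MCM3 and from the AUG of the long form of MCM7 (x axis, dashed line at 0), with the deposited starts as dotted lines. On MCM3 the 45 codons before the second AUG hold 11 reads. On MCM7 the AUG of the long form is at 0 if the deposited 5′UTR has no gap, which was not tested. So placed, 17604 reads lie between it and the deposited AUG.

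With MCM3 counted from its second AUG, before which the deposited CDS is nearly empty, the longest stretch of low occupancy in the family was on MCM7. Codons 111 to 139 of the long form, which lie over the border of exons 4 and 5 if the deposited 5′UTR has no gap, held 5, 5 and 2 reads, where the mean of the CDS would give 2236. None of the 30-mers of the stretch so placed occurs in a transcript of another gene. The other members had such stretches of 9 to 19 codons, among them codons 148 to 162 of MCM2 (10 reads where the mean would give 561) and codons 613 to 630 of MCM10 (0 reads where the mean would give 146, and an upper limit of 3 reads that a count of 0 allows).

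A peak at the start codon itself was seen on some mRNAs and not on others. The AUG of MCM5 held 149, 138 and 55 reads, 16.9 times the mean number of reads per codon, and that of MCM6 held 111, 94 and 86, 7.47 times. On MCM2 the AUG held 8, 13 and 6 reads (0.722 times the mean), on MCM4 12, 10 and 7 (0.385 times), and the second AUG of MCM3 held 18, 9 and 9 (0.757 times). The AUGs of MCM8 and MCM10 held 3 reads each.

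Upstream of the CDS, MCM8 had the largest share of its occupancy in the 5′UTR once MCM7 was counted from the long form. Its 5′UTR of 140 codons held 78, 69 and 44 reads in libraries A, B and C, or 4.43% ± 0.190 of the occupancy of 5′UTR and CDS, a share above that of 86.7% of transcripts. The GENCODE form with the same CDS and a 5′UTR of 431 nt has 2 AUGs upstream of the main one, at 281 and 37 nt before it, both out of frame with it. The first opens a reading frame of 15 codons and the second one of 2 codons, an AUG followed directly by a stop codon, as the printed sequence shows.

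Counted back from the main AUG, codon 47 of the deposited 5′UTR holds the A of the first upstream AUG and codon 128 that of the second. This placement holds if the deposited 5′UTR matches the GENCODE form of 431 nt without a gap, which was not tested. Codon 47 had 15, 29 and 14 reads and codon 128 had 16, 14 and 11. These were the highest codons of the 5′UTR. Of its reads 59.2% lay in the span of the first upstream reading frame so placed and 21.99% in that of the second. The GENCODE form named canonical has the same CDS but a shorter 5′UTR that lacks the second upstream AUG. The occupancy values hold only reads in the frame of the main CDS, so none of these reads is in the frame of an upstream AUG so placed. Translation of the upstream frames was not measured. Also, 96.4% of the CDS 30-mers of MCM8 occur in an unnamed readthrough gene that overlaps it on the same strand (chr20:5931595-6020502), so its counts could be shared with that gene, whereas for the other 7 members 0% of them occur in another gene.

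On the other mRNAs the 5′UTR held little. MCM2 had 160 reads on 33 codons (0.486% ± 0.137 of the occupancy), of which 71.9% were on codons 20 to 22. On MCM4, whose deposited 5′UTR is 272 codons long, there were 53 reads (0.0798% ± 0.0154), of which 40 were on the last codon before the AUG. MCM5 had 47, MCM6 70 and MCM10 33 reads, 0.327%, 0.229% and 0.436% of the occupancy, against a median of 0.360% over all transcripts. In the last 17 codons before the AUG the occupancy was highest on MCM7 counted from the long form, at 0.0302 ± 0.00239 or 61.6% of its CDS mean, and was 0.0169 ± 0.00306 on MCM8, 0.0123 ± 0.00302 on MCM6 and 0.00848 ± 0.00239 on MCM2. On MCM5 it was 0.00384, on MCM10 0.00351, on MCM4 0.00313 and before the second AUG of MCM3 0.000638. Upstream AUGs were searched in the GENCODE 5′UTRs only, where MCM2, MCM4, MCM5, MCM6, MCM7 and MCM10 have none. MCM3 has 1, within the 72 nt before its first AUG. For the genes with none, the GENCODE 5′UTRs are shorter than the deposited ones, the rest of which was not searched. They have 56 nt on MCM2, 77 nt on MCM5, 78 nt on MCM6, 88 nt on MCM4 and 103 nt on MCM7 and MCM10.

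The TE of the MCM genes was set beside that of the other genes of replication, in lists of 67 genes, of which 64 were measured. Of these 39 were called above and 19 below the median of all values, beside 44.7% and 44.6% of all genes, and their median was 0.47 above it on the log2 scale, where MCM2 to MCM7 had 0.34 and all genes had -0.0018. In origin licensing, the step in which the MCM ring is loaded, 9 of 10 genes were called above and 0 below. CDC6, which helps to load the ring, had a TE of 2.58 ± 0.0814 (SD, n = 3), the origin subunit ORC2 1.54 ± 0.0348 and GMNN, geminin, the inhibitor of CDT1, 1.13 ± 0.0485. The lowest were ORC1 at 0.359 ± 0.00887, which was not called (limma adjusted p = 0.126), ORC3 at 0.477 ± 0.0237 and the loading factor CDT1 at 0.592 ± 0.0640.

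In helicase activation 7 of 12 genes were above and 5 below. The GINS subunits GINS1, at 2.53 ± 0.0952, and GINS2, at 2.27 ± 0.0356, and CDC45, at 0.812 ± 0.0544, which join the MCM ring in the active helicase, were highest. DONSON, at 0.0964 ± 0.00225, DBF4B, an activator of the kinase CDC7, at 0.136 ± 0.0274, and TICRR, at 0.259 ± 0.0413, were lowest. Of the genes for polymerases, clamp and clamp loader 9 of 17 were above and 4 below. PCNA, the sliding clamp, stood at 2.78 ± 0.0444, POLE4 at 2.42 ± 0.0866 and RFC3 at 1.90 ± 0.162, while the subunits POLD2 and POLD1 of polymerase δ had 0.0457 ± 0.00121 and 0.0495 ± 0.00195 and RFC2 0.261 ± 0.0147.

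Of the genes for fork stability and the lagging strand 8 of 16 were above and 7 below. RPA1, the large subunit of RPA, had 3.58 ± 0.242, DSCC1 1.87 ± 0.0405 and RPA3 1.61 ± 0.194, and the lowest were CHTF18 at 0.0454 ± 0.00179, LIG1, DNA ligase I, at 0.0774 ± 0.0104 and RNASEH2B at 0.0804 ± 0.00353. All 6 genes of nucleotide supply were above, among them TYMS, thymidylate synthase, at 2.63 ± 0.0975, DUT at 1.29 ± 0.0250, RRM2 at 0.719 ± 0.0294, RRM1 at 0.678 ± 0.0769 and TK1 at 0.514 ± 0.0326. The 3 measured genes of the MCM8 and MCM9 branch were all below, as was MCM8 itself, among them MCM9 at 0.308 ± 0.0258 and C17orf53 at 0.140 ± 0.0228.

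**Figure D5:**
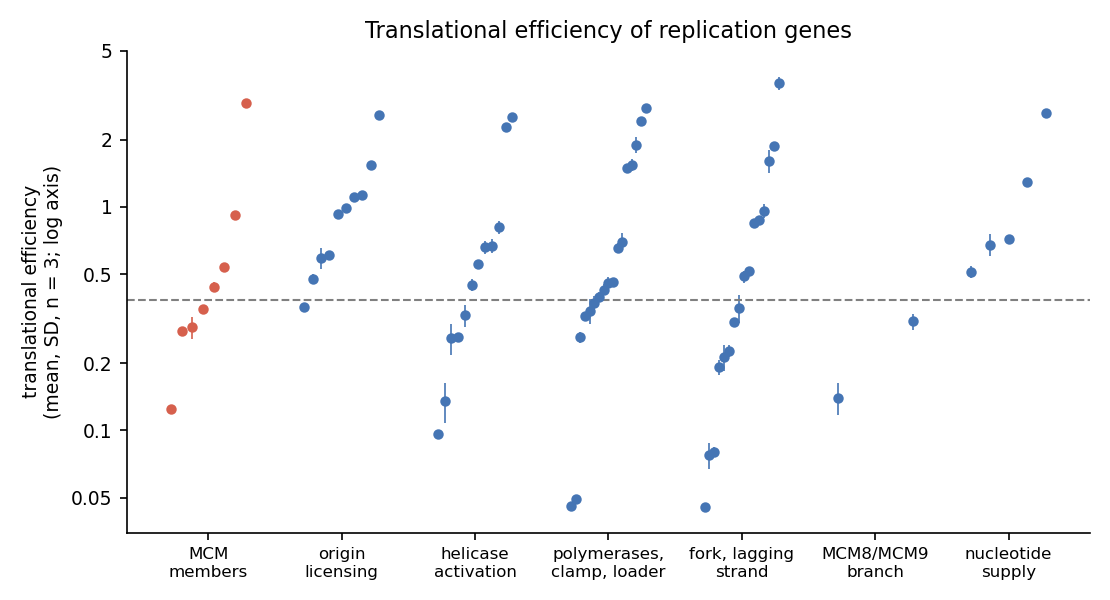
TE on a log axis (mean of 3 replicates, error bars the SD) of the 8 MCM genes and of the measured genes of each replication list other than those not reported here, with a dashed line at the median of all genes (0.383). The genes of nucleotide supply shown lie above the dashed line and those of the MCM8 and MCM9 branch below it.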

How the data were processed

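Per the labels and methods, the authors trimmed adapters (Cutadapt), discarded PCR duplicates (cd-hit-dup), mapped RPFs onto hg19 transcripts (bowtie) and counted total RNA per gene (HTSeq). The submitters' processing notes name cutadapt 1.16, Bowtie 1.1.2, TopHat2 2.1.1 and HTSeq 0.9.1, whereas the methods name Hisat2 for total RNA. The deposited TE of each gene and replicate is a ratio, RPFs over total RNA on a linear scale, with no formula given in the sources used here. The other deposited table holds, per codon and in frame, RPF counts scaled by the authors to library size, then divided by the TPM of the transcript, with replicates combined, for the most abundant transcript of a gene with at least 25 RPFs. A ratio hides the depth behind it, and multimapping reads and reads of other isoforms can shift occupancy.

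Each deposited value was written as whole reads times the worth of a read in each of 3 libraries (relative tolerance 1e-13). This worth was found for 9406 of 9570 transcripts (98.3%), and all values above 0 on the 8 MCM mRNAs were matched, with 0 unmatched. In a test on simulated data the worth was found for 187 of 194 transcripts (96.4%), and 100% of the values gave back the exact reads. The 31 CDS lists broken over lines hold no MCM mRNA. Abundance is the reciprocal of that worth. The occupancy table alone gives no replicate error, so SDs of occupancy, reads and abundance are over these libraries, and reads without replicate numbers were not joined to the TE of a replicate.

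With limma 3.58.1 (R 4.3.3), log2(TE + 0.01) of every gene was compared with the overall median, or within replicates with each MCM gene. Adjustment was by Benjamini-Hochberg over all 8121 genes, the threshold was 0.05, and low values were kept. In simulated data of 8121 genes for the comparison with the median, 84% of 200 genes moved by 1 on the log2 scale were called. Of the unmoved genes 3 were called. These were all centred on the median, unlike the genes of the data, so the error rate of the real test was not measured. Total RNA and RPF libraries of a number come from the same lysate per the methods, so the pairing is within the deposited ratio. The median SD of log2 TE over replicates was 0.101.

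Sequences, exons and coordinates are from GENCODE 44 in its GRCh37 (hg19) version. Python 3.11.15, numpy 2.4.6, pandas 2.3.3 and Biopython 1.88 were used. The genes named are the 8 members, the 3 highest and 3 lowest TEs of each replication list (all genes of lists with fewer than 6 measured) and the 5 list genes nearest to the median of MCM2 to MCM7. Some list genes that this rule takes are not reported here. The members and lists were chosen with earlier results of these data known, and the stretches of low occupancy, the single 5′UTR codons and the search for upstream AUGs were chosen after the values had been seen.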

Additional observations from a re-analysis of the deposited data

Results flagged for a closer look

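In-frame reads in the 3′UTR, which no comparison above used, exceeded the 3 reads that a count of 0 allows on 3 of the MCM mRNAs. MCM4 had 16 in-frame reads on the 465 codons of its 3′UTR, with 3, 6 and 7 in libraries A, B and C. MCM3 had 6 on 204 codons, 2 in each library, and MCM6 had 4 on 409 codons, with 0, 1 and 3. Beside 65119, 38476 and 32005 reads on their CDSs these are few, and MCM2 and MCM7 had 1 each and MCM5, MCM8 and MCM10 had 0. The limit covers counting error only.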

How the results depend on the processing

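The number of MCM genes called against the median was 7 of 8 with a pseudocount of 0.1, with a replicate block (the median of each replicate removed) and with at least 100 in-frame CDS reads, and 6 to 7 with a replicate left out, MCM5 being the gene lost without replicate 1 or 2. Of the replication genes 58 of 64 were called, 59 with a pseudocount of 0.1 or the replicate block, 55 to 58 with a replicate left out and 53 of 58 with at least 100 reads. Of the 28 pairs 26 were called with no replicate block and 26 to 27 with a replicate left out. The block and its absence changed no other call that the text gives.

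The median CDS occupancy of the 8 mRNAs, 0.0433, was 0.0384 without the 1% of codons with the highest occupancy, and 0.0431 to 0.0435 with a library left out. The median of first over last 75 codons, 0.681, was 0.554 in windows of 50 codons, 0.835 without the first 15 and last 5 codons and 0.919 from the other AUGs of MCM3 and MCM7, and 0.671 to 0.687 with a library left out. The median occupancy of the last 17 codons of the 5′UTR, 0.00616, was 0.00465 for the last 10, and 0.00557 to 0.00662 with a library left out. The highest over the lowest footprint density of the ring with libraries summed, 3.73, was 3.90 without the first 15 and last 5 codons, 3.81 from the other AUGs, 3.74 with the mean worth of a read, and 3.69 to 3.79 with a library left out. The alternatives with other AUGs or a library left out were chosen after seeing the data. Over all alternatives 6 values moved by more than the SD over libraries and 0 results were reversed, with first over last taken as the median of the 8 mRNAs. On single mRNAs the other AUG took first over last from 0.532 to 1.88 on MCM3 and from 0.932 to 1.59 on MCM7. Both thus crossed 1. Depth limits MCM8 and MCM10 most, with 4114 and 7113 CDS reads.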
